A study of Mus musculus with 12 samples.

Results

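Sca1+ fibroblasts of newborn mouse skin that lacked Dlk1 at the surface were compared with Sca1+ fibroblasts that carried it. The arrays were taken by their cell population label, which gave 3 arrays of Dlk1- Sca1+ cells and 3 arrays of Dlk1+ Sca1+ cells, or 6 of the 12 arrays in the series. The labels name both populations pre-adipogenic. Each population came from the same 3 female littermates aged 2 days, so that animals 1, 2 and 3 each gave 1 array of each. Dissected skin was freed of its subdermis and then dissociated with collagenase. All sorted cells were positive for Pdgfra and CD34 and negative for CD45, CD117, CD31 and EpCam, and both Sca1+ gates also excluded CD26+ cells. The 6 other arrays held cells without surface Sca1 from the same animals: CD26+ Dlk1- papillary fibroblasts and CD26- Dlk1+ reticular fibroblasts. No genotype or strain is given in the labels. The gates are defined by surface protein, and RNA of 4500 sorted cells was amplified over 21 cycles before hybridization, so each array reports a gate as a whole and not single cells.

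Dlk1 is a membrane protein of the Delta and Notch family, encoded by an imprinted gene and high in many fetal mesenchymal cells. Its cleaved outer part is known to hold preadipocytes back from becoming fat cells. Sca1 is a small lipid-anchored surface protein, encoded in mice by Ly6a, that marks adipocyte progenitors in several depots. In mouse skin the lower fibroblast lineage gives rise to the reticular dermis and to the fat layer under it, and the papillary lineage lies next to the epidermis and supplies cells to the hair follicle.

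Values are log2 levels from RMA (robust multi-array average), so a difference of 1 is a doubling on that scale. Differences are Dlk1- Sca1+ minus Dlk1+ Sca1+, with the standard error (SE) of 1 limma fit over all 12 arrays, and a gene is said to have passed, risen or fallen where its Benjamini-Hochberg adjusted p over 17097 genes was under 0.05. That fit had no term for the animal, so it leaves the pairing of arrays unused. A gene said not to have passed may pass with the animal as a block. Median levels of the 6 Sca1+ arrays lay between 6.21 and 6.26. Arrays correlated across genes at r of 0.989 to 0.995 within Dlk1- Sca1+ cells, 0.992 to 0.994 within Dlk1+ Sca1+ cells and 0.981 to 0.99 between them. Precision is limited by the number of arrays. Fewer cells of a type and less RNA per cell cannot be told apart in such samples.

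Markers of other cell types set 3 of the 6 arrays apart. The mean level over 14 keratinocyte and epithelial markers was 9.45 in the Dlk1- Sca1+ array of animal 1, against 7.10 in both other Dlk1- Sca1+ arrays and 7.38, 7.88 and 6.85 in the Dlk1+ Sca1+ arrays of animals 1, 2 and 3. In that array Krt5, a keratin of basal keratinocytes, read 12.10, Epcam read 8.62, and the melanocyte genes Dct and Pmel read 8.98 and 9.13. Its mean over 8 mast cell markers was 5.81, against 5.06 to 5.18 in the other Sca1+ arrays. The Dlk1+ Sca1+ array of animal 2 had the highest mean over 19 endothelial markers, 6.68 against 6.13 to 6.5 in the others, with Cdh5 at 7.76 and the mural cell genes Rgs5 and Myh11 at 8.98 and 8.37. The Dlk1+ Sca1+ array of animal 3 read 7.77 for Lyve1 and 7.08 for Reln, both lymphatic endothelial genes, and its mean over 6 lymphatic markers was 7.28, against 6.26 to 6.61 in the others. None of the 14 keratinocyte, 6 lymphatic, 8 mast cell and 3 erythroid markers passed in the fit without a block. All 14 keratinocyte differences were positive, and Krt10, a keratin of differentiating epidermis, at 1.34 and an adjusted p of 0.0682, passed with the animal as a block (0.00986) and without animal 2 of Dlk1- Sca1+ cells (0.0309). Without animal 1 of Dlk1- Sca1+ cells and animal 2 of Dlk1+ Sca1+ cells 1 lymphatic marker fell. Among 15 immune markers only Cd68 fell, by 0.46, a call lost without some single arrays, and Ptprc, which encodes CD45, read 4.03, 3.85 and 3.93 in Dlk1- Sca1+ cells, against 3.92, 3.82 and 3.89 in Dlk1+ Sca1+ cells. Counts over gene lists were repeated without the array of animal 1 from Dlk1- Sca1+ cells and that of animal 2 from Dlk1+ Sca1+ cells. This choice was made after the marker levels were seen. These counts are given for most lists where they moved by over 1.5 times, but not for all. The Dlk1+ Sca1+ array of animal 3 was kept, so only animal 3 then had an array on both sides.

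**Figure D1:**
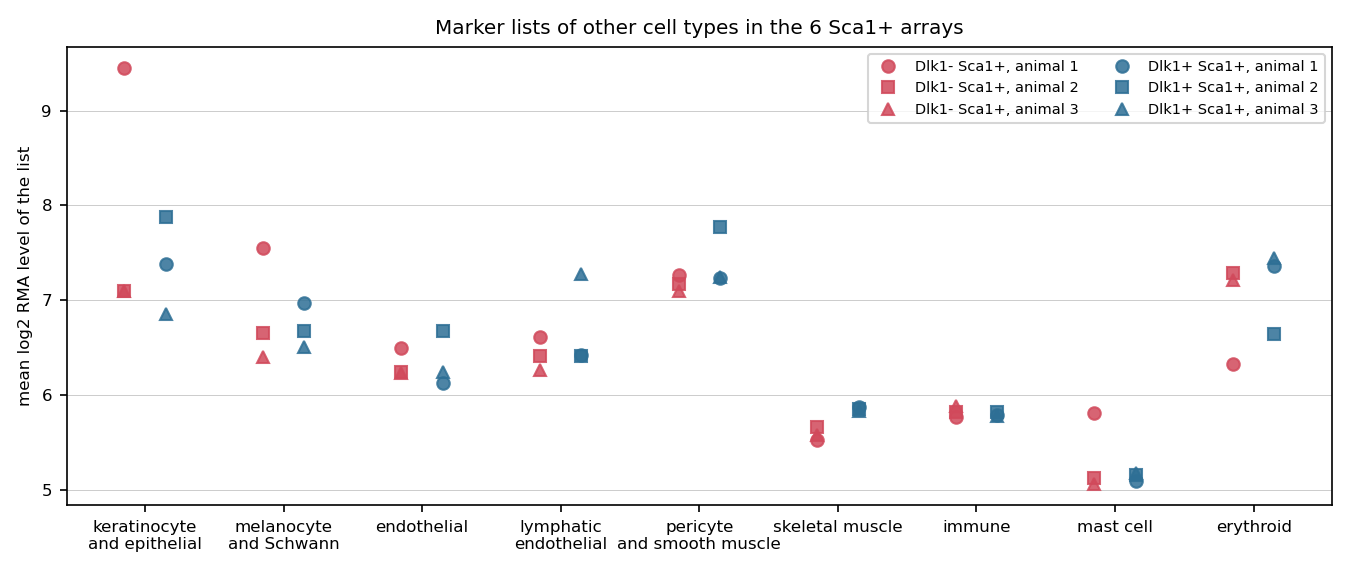
Mean log2 RMA level of 9 marker lists of other cell types (vertical axis) in each of the 6 Sca1+ arrays, with colour for population and shape for animal. The Dlk1- Sca1+ array of animal 1 stands at 9.45 for keratinocyte and epithelial markers, and the Dlk1+ Sca1+ array of animal 3 at 7.28 for lymphatic endothelial markers.

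The transcript of the sorting marker followed the gate but was not absent from Dlk1- cells. Dlk1 read 11.18, 11.45 and 11.54 in Dlk1- Sca1+ cells of animals 1, 2 and 3, against 12.87, 12.90 and 12.82 in Dlk1+ Sca1+ cells. The groups did not overlap, and the difference was -1.47 (SE 0.10), or 2.78-fold lower, with a limma adjusted p of 2.49e-06. The mean in Dlk1- Sca1+ cells was 11.39. CD26+ papillary cells, the other Dlk1- gate, averaged 9.97 ± 0.14 (SD, n = 3) and Dlk1+ reticular cells 12.97 ± 0.07 (SD, n = 3). Of the other sorting genes none passed. Cd34 differed by -0.34, with an adjusted p of 0.0503 that became 0.0435 with the animal as a block, and Dpp4, which encodes CD26, averaged 6.37 in Dlk1- Sca1+ cells and 6.26 in Dlk1+ Sca1+ cells, against 10.61 in CD26+ papillary cells. The transcript for Sca1 was not analysed here.

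Across all genes, 1258 (7.36%) passed, of which 552 (3.23%) rose and 706 (4.13%) fell in Dlk1- Sca1+ cells. Counts over gene lists below are to be set beside these shares. When the animal entered as a block, 1897 genes (11.1%) passed, of which 914 (5.35%) rose and 983 (5.75%) fell. In 1252 genes (7.32%) the 3 values of one population all lay above the 3 of the other, against 3737 (21.9%) of all genes whether or not they passed. Differences of at least 1 were seen in 69 genes that rose (0.404%) and 128 that fell (0.749%), and the median size among genes that passed was 0.55. All 1258 had the same sign of difference in each of the 3 animals. A lack of overlap already requires this for the 1252, so it is not separate support. Without the 2 arrays named above, 824 genes passed. Leaving out any single Sca1+ array ended the call of 21 of the 138 genes followed one by one that passed, at adjusted p up to 0.176, which is said below where such a gene is described.

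**Figure D2:**
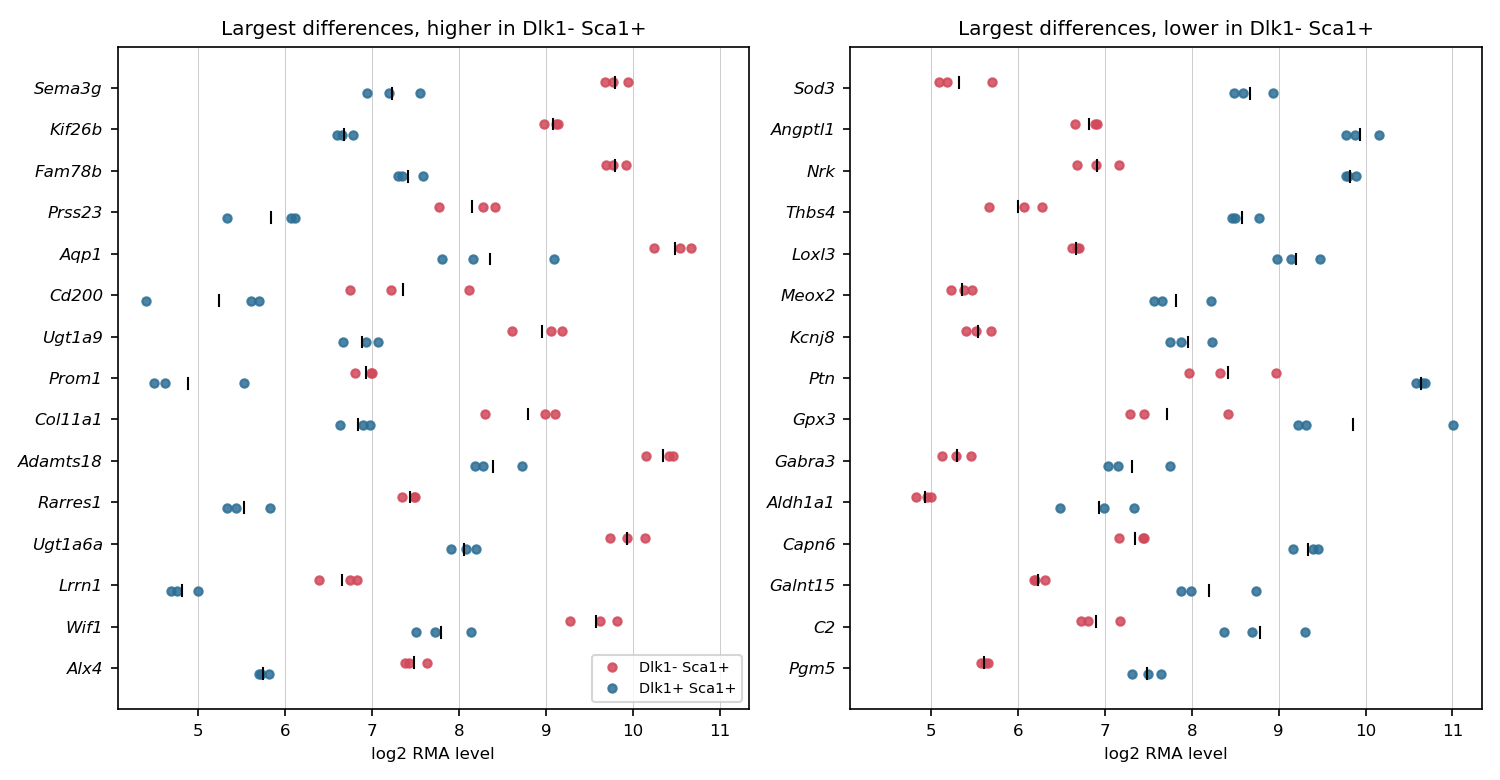
Log2 RMA level (horizontal axis) of the 15 genes with the largest difference in each direction among those that passed and did not overlap, with 1 point per array and a bar at each mean. Sema3g and Sod3 head the 2 panels, at differences of 2.57 and -3.35, and in each gene all 3 Dlk1- Sca1+ arrays lie on one side of all 3 Dlk1+ Sca1+ arrays.

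Sema3g, Kif26b, Fam78b, Prss23 and Aqp1 rose most in Dlk1- Sca1+ cells. Sema3g, a secreted semaphorin that binds neuropilins, read 9.77, 9.95 and 9.68 in Dlk1- Sca1+ cells, against 6.94, 7.55 and 7.19 in Dlk1+ Sca1+ cells. Its difference of 2.57 (SE 0.13) is 5.95-fold, with an adjusted p of 3.23e-07. Aqp1, a water channel, read 10.54, 10.67 and 10.24 in Dlk1- Sca1+ cells, against 8.16, 9.09 and 7.81 in Dlk1+ Sca1+ cells. All 3 Dlk1- Sca1+ values of Aqp1 were high, and the Dlk1+ Sca1+ value of animal 2 was the highest of its group. The difference was 2.13 (SE 0.25, adjusted p = 1.66e-04). Kif26b, a member of the kinesin family, rose by 2.40 and Fam78b by 2.38, or by 1.55 with its probe sets averaged. Prss23, a secreted serine protease, read 8.41, 7.77 and 8.28 in Dlk1- Sca1+ cells, against 5.33, 6.07 and 6.11 in Dlk1+ Sca1+ cells. It was thereby 4.98-fold higher, but this size depends on the probe set: the difference of 2.32 was 0.99 with the probe set of largest SD, and 1 of its 3 probe sets did not pass. Cd200, a membrane glycoprotein that restrains myeloid cells through its receptor, had the widest spread of these, at 8.11, 6.75 and 7.22 in Dlk1- Sca1+ cells and 5.61, 5.70 and 4.40 in Dlk1+ Sca1+ cells (adjusted p = 0.00246). Rarres1, named for its induction by retinoids, rose by 1.91, and Lrrn1, a leucine-rich repeat membrane protein, by 1.84, or by 0.64 with its probe sets averaged.

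Sod3 and Angptl1 fell most with each gene read from 1 probe set. Sod3, the extracellular superoxide dismutase, read 5.70, 5.18 and 5.09 in Dlk1- Sca1+ cells, against 8.94, 8.48 and 8.59 in Dlk1+ Sca1+ cells. The difference of -3.35 (SE 0.15) is 10.2-fold, with an adjusted p of 1.67e-07, and the groups did not overlap. With its 2 probe sets averaged the difference of Sod3 was -2.13, which is smaller than that of Angptl1. Angptl1, a secreted angiopoietin-like protein, read 6.88, 6.66 and 6.91 in Dlk1- Sca1+ cells, against 10.16, 9.78 and 9.88 in Dlk1+ Sca1+ cells. Its difference was -3.12 (SE 0.13), or 8.71-fold lower, again without overlap. Nrk, a protein kinase of the germinal centre kinase family encoded on the X chromosome, fell by 2.91 on the log2 scale and Thbs4, a thrombospondin of the matrix, by 2.57. Loxl3, a lysyl oxidase that crosslinks collagen and elastin, read 6.70, 6.62 and 6.68 in Dlk1- Sca1+ cells, against 9.47, 8.98 and 9.14 in Dlk1+ Sca1+ cells, which is a 5.78-fold difference. Ptn, the growth factor pleiotrophin, read 8.97, 7.97 and 8.32 in Dlk1- Sca1+ cells, against 10.65, 10.58 and 10.68 in Dlk1+ Sca1+ cells. Ptn varied more among the Dlk1- Sca1+ arrays (SD 0.51) than among the Dlk1+ Sca1+ arrays (SD 0.05). Meox2, a homeobox transcription factor of mesoderm, fell by 2.45, Kcnj8, a potassium channel subunit also used as a pericyte marker, fell by 2.42, and Gabra3, a GABA receptor subunit, by 2.02, with a difference of -1.32 for the mean of its probe sets. Of the other 10 pericyte and smooth muscle markers none passed in the fit without a block, but Acta2, smooth muscle actin, at a difference of 0.64 and an adjusted p of 0.0543, passed with it (0.00203) and without animal 1 of Dlk1- Sca1+ cells (0.0254) or animal 2 of Dlk1+ Sca1+ cells (0.0449).

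Adipogenic genes did not move as a group. Of 20 regulators of adipogenic commitment, Pparg rose and 4 fell, and the median difference was 0.03, against 0.01 over all genes. With the animal as a block 3 rose, and without the 2 arrays named above 1 fell. Pparg, the nuclear receptor that drives fat cell formation, read 10.37, 10.37 and 10.46 in Dlk1- Sca1+ cells, against 9.77, 9.74 and 9.94 in Dlk1+ Sca1+ cells. The difference was 0.58 (SE 0.11), or 1.5-fold (adjusted p = 0.00427), with no overlap. Cebpd, an early factor of adipogenesis, went the other way, with 8.90, 8.61 and 9.0 in Dlk1- Sca1+ cells and 10.06, 9.88 and 9.86 in Dlk1+ Sca1+ cells. Ebf3, an early B cell factor, fell by 0.72, Zfp521, a zinc finger protein that antagonizes this family, by 0.65, and Stat5a by 0.35. Ebf3 and Zfp521 were no longer past the threshold without the 2 arrays named above, and the difference of Ebf3 was -1.31 with its probe set of largest SD. Cebpa averaged 10.65 ± 0.17 in Dlk1- Sca1+ cells and 10.34 ± 0.17 in Dlk1+ Sca1+ cells (SD, n = 3 each), and its adjusted p of 0.16 became 0.0138 with the animal as a block. Zfp423, Ebf2, Klf15 and Cebpb differed by 0.24, 0.25, 0.04 and 0.03 and did not pass.

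Fabp4 and Lpl, 2 of 15 products of fat cells, were high in both Sca1+ populations. Over all 12 arrays 8 of the 15 averaged above the median level of all genes. Fabp4, a fatty acid carrier, averaged 12.47 ± 0.04 in Dlk1- Sca1+ cells and 12.28 ± 0.08 in Dlk1+ Sca1+ cells, and Lpl, lipoprotein lipase, 12.17 ± 0.04 and 12.19 ± 0.06 in the same order (SD, n = 3 each). Neither passed. Both genes averaged lower in the cells without Sca1, with Fabp4 at 5.73 in papillary and 10.08 in reticular cells and Lpl at 9.11 and 10.75. Of the 15 genes 2 rose and 1 fell, and 1 rose and 2 fell without the 2 arrays named above. With the animal as a block 3 rose and 1 fell. Adipoq, the hormone adiponectin, read 5.69, 5.04 and 5.52 in Dlk1- Sca1+ cells, against 4.82, 4.57 and 4.58 in Dlk1+ Sca1+ cells (difference 0.76, adjusted p = 0.00494). Its call was lost without the 2 arrays named above, and its values lay below the array medians of 6.21 to 6.26. Cd36, a fatty acid receptor, rose by 0.71 at an adjusted p of 0.0333, which was above 0.05 without any one of 5 arrays, at 0.12 without that of animal 1 from Dlk1- Sca1+ cells, while Pnpla2, the first lipase of fat breakdown, fell by 0.38 and missed the threshold without animal 1 or animal 3 of Dlk1+ Sca1+ cells, at 0.0531 and 0.0542.

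Lipid and sterol synthesis leaned higher. Of 15 genes, 3 rose and none fell, the median difference was 0.25, and 8 rose with the animal as a block. Fdps and Idi1 encode enzymes of the isoprenoid steps before cholesterol. Fdps read 8.46, 8.04 and 8.18 in Dlk1- Sca1+ cells, against 7.26, 7.47 and 7.61 in Dlk1+ Sca1+ cells (adjusted p = 0.00172), and Idi1 rose by 0.93. Elovl6, which lengthens saturated fatty acids, rose by 0.86 and missed the threshold at 0.0548 without animal 1 of Dlk1+ Sca1+ cells. Its call was also lost with its 3 probe sets averaged. Without the 2 arrays named above, 2 of the 15 rose and 1 fell.

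Genes known to restrain adipogenesis went both ways, with 3 of 17 higher and 3 lower. With any single Sca1+ array left out 2 rose and 3 fell. With all arrays of any 1 animal left out 1 rose and 3 fell. Wnt5b, a Wnt ligand, read 7.41, 7.31 and 7.59 in Dlk1- Sca1+ cells, against 5.57, 5.82 and 5.87 in Dlk1+ Sca1+ cells. This is a 3.21-fold rise with an adjusted p of 3.27e-06, and the difference of 1.68 was 1.03 with its probe sets averaged. Meox2 and Dlk1 itself fell, as did Clec11a, a secreted lectin that promotes bone formation, by 1.08. Dlk1 is counted here though its protein defines the gates. Among 36 members of the Wnt pathway, 3 rose and 3 fell, or 16.7% against 7.36% of all genes. Without the 2 arrays named above 1 rose and 2 fell. Wif1, a secreted inhibitor that binds Wnt proteins, read 9.28, 9.62 and 9.82 in Dlk1- Sca1+ cells, against 7.51, 7.72 and 8.14 in Dlk1+ Sca1+ cells, and Apcdd1, a membrane inhibitor of the pathway, rose by 0.77, a call lost without those arrays. Lgr5, an R-spondin receptor, fell by 0.94 and the ligand Wnt2b by 0.70. Axin2, a common transcriptional target of the pathway, differed by 0.34 with an adjusted p of 0.15, so that a change in it was not detectable with 3 arrays a side.

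Imprinted growth genes were lower in Dlk1- Sca1+ cells. Of 15 measured, 9 fell and none rose, with a median difference of -0.40. The 9 include Dlk1, whose protein defines the gates, so its fall is not a separate result. Counts were the same with the animal as a block, and 6 fell without the 2 arrays named above. Dlk1, Meg3, Rian and Mirg lie in 1 imprinted cluster and are not independent of each other. Mirg, a noncoding RNA that carries microRNAs, read 9.55, 9.63 and 9.65 in Dlk1- Sca1+ cells, against 10.43, 10.61 and 10.60 in Dlk1+ Sca1+ cells. The noncoding RNAs Rian and Meg3 fell by 0.55 and 0.42. Outside the cluster, Igf2, the fetal growth factor, read 11.80, 11.96 and 11.94 in Dlk1- Sca1+ cells, against 12.71, 12.77 and 12.66 in Dlk1+ Sca1+ cells. That is a 1.76-fold difference between values near the top of the scale (adjusted p = 2.84e-05). Plagl1, a zinc finger transcription factor, fell by 0.52, Ndn by 0.40, Sgce by 0.39 and Zim1 by 0.59, the last at an adjusted p of 0.0514 without animal 1 of Dlk1+ Sca1+ cells. Peg3 and Cdkn1c, at differences of -0.15 and 0.08, did not pass.

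The wider insulin-like growth factor system moved with Igf2 in part. Of 13 genes 5 fell and 1 rose. With all arrays of animal 2 or of animal 3 left out 2 fell and none rose. Igf1, the second ligand, read 10.15, 10.11 and 10.14 in Dlk1- Sca1+ cells, against 11.24, 11.20 and 11.20 in Dlk1+ Sca1+ cells, and the replicates of each group lay close together (SD 0.02 in both). The difference was -1.08 (SE 0.10, adjusted p = 2.39e-05). Pappa2, a protease that frees the ligands from their binding proteins, fell by 0.88, a call lost without the 2 arrays named above, the binding protein Igfbp6 by 0.67 and the insulin receptor gene Insr by 0.48. Igfbp4, another binding protein, rose by 0.37. The main receptor gene Igf1r differed by -0.33 and did not pass, at an adjusted p of 0.0519 that became 0.00654 with the animal as a block.

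Growth factor receptors of the PDGF, HGF, angiotensin and neurotrophin families, taken with some of their ligands, were lower. Of 18, 9 fell and 1 rose (median -0.43), and 7 fell and none rose without the 2 arrays named above. Agtr2, the type 2 angiotensin II receptor, read 9.76, 9.95 and 10.22 in Dlk1- Sca1+ cells, against 11.48, 11.44 and 11.47 in Dlk1+ Sca1+ cells. It was 2.80-fold lower with an adjusted p of 6.48e-06. Ngfr, the low-affinity nerve growth factor receptor, read 7.54, 7.73 and 7.84 in Dlk1- Sca1+ cells, against 8.98, 8.84 and 8.58 in Dlk1+ Sca1+ cells. Ngfr also stands in the list of melanocyte and Schwann cell markers, of which it alone passed. Pdgfrl, a secreted protein related to PDGF receptors, fell by 1.13, Met, the HGF receptor, by 1.09, and Ntrk2, the BDNF receptor, by 1.04. The ligand Hgf fell by 0.89 and the type 1 angiotensin receptor gene Agtr1a by 0.73. Pdgfra and Pdgfrb differed by 0.16 and 0.20 and did not pass.

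In the fibroblast growth factor pathway 7 of 18 genes fell and 2 rose, but at most 1 rose with any single Sca1+ array left out. Without the 2 arrays named above 6 fell and 1 rose. Fgf7, a keratinocyte growth factor made by dermal cells, read 6.72, 6.70 and 6.74 in Dlk1- Sca1+ cells, against 8.64, 8.67 and 8.37 in Dlk1+ Sca1+ cells. It was 3.58-fold lower with an adjusted p of 1.03e-06, and the groups did not overlap. Spry1 and Spry2, feedback inhibitors induced by this pathway, fell by 0.82 and 0.92, and the ligands Fgf10, Fgf1 and Fgf23 by 0.55, 0.51 and 1.30. Fgfr2 and Fgfr4, 2 of the receptors, rose by 0.38 and 0.60. Fgfr4 missed the threshold without any one of 4 arrays, at up to 0.113 without animal 3 of Dlk1- Sca1+ cells. Of its 5 probe sets 4 did not pass, and its call was lost with them averaged. Fgfr2 lost its call without animal 1 of either Sca1+ population, animal 2 of Dlk1- Sca1+ cells or animal 3 of Dlk1+ Sca1+ cells. Fgfr1, another receptor, averaged 11.56 in Dlk1- Sca1+ cells and 11.77 in Dlk1+ Sca1+ cells and did not pass.

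Ligands of the TGF-beta and BMP families went in both directions, with 3 of 34 pathway genes higher and 4 lower, 6 higher and 5 lower with the animal as a block, and 3 higher and 2 lower without the 2 arrays named above. Gdf10, a BMP-related ligand, read 7.02, 6.77 and 6.98 in Dlk1- Sca1+ cells, against 8.98, 8.14 and 8.47 in Dlk1+ Sca1+ cells, a 3.05-fold difference. Bmp6 went the other way, at 8.63, 8.97 and 8.97 in Dlk1- Sca1+ cells and 7.54, 8.02 and 8.07 in Dlk1+ Sca1+ cells (adjusted p = 0.00122). Tgfb1 rose by 0.48 and Tgfb3 fell by 0.59. Id1, a transcriptional target of BMP signalling, rose by 0.61, and the BMP antagonist Chrdl1 fell by 0.80. Of the 4 probe sets of Chrdl1 3 did not pass, and its call was lost with the probe set of largest SD.

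Notch pathway genes were higher in Dlk1- Sca1+ cells. Of 15 measured, 6 rose and 1 fell (median 0.34), and with single Sca1+ arrays left out 5 or 6 rose and at most 1 fell. With all arrays of animal 2 left out 3 rose and none fell. Hey1, Heyl, Hes1 and Hey2 are transcriptional repressors that Notch signalling switches on. Hey1 read 8.72, 8.86 and 8.57 in Dlk1- Sca1+ cells, against 7.43, 7.67 and 7.49 in Dlk1+ Sca1+ cells. It was 2.28-fold higher with an adjusted p of 3.16e-05. Heyl read 9.89, 10.02 and 9.54 in Dlk1- Sca1+ cells, against 9.18, 9.13 and 8.80 in Dlk1+ Sca1+ cells, and Hes1 9.82, 9.80 and 9.65 against 9.24, 9.03 and 9.11 in the same order. Hey2 averaged 5.16 in Dlk1- Sca1+ cells and 4.66 in Dlk1+ Sca1+ cells, a difference of 0.50 (adjusted p = 5.32e-04). The receptor gene Notch1 rose by 0.70, and Lfng, a glycosyltransferase that modifies Notch receptors, by 0.51. Rbpj, the DNA-binding partner of the Notch intracellular domain, fell by 0.43 (adjusted p = 0.0373), a call that was lost in 5 of the 6 settings that left out a single Sca1+ array and without the 2 arrays named above. The ligand genes Jag1, Dll1 and Dll4 and the receptor genes Notch2, Notch3 and Notch4 did not pass. Dlk1 is known to act on Notch receptors, and no measurement of receptor activity was made.

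RBPJ binds a short site in the promoters of its targets, and the promoter of Hey2 is shown because it held this site in a window of RefSeq annotation (GRCm38.p6) from 250 bases before to 50 bases after the gene's start. The letters searched were CGTGGGAA on both strands, which stood in 241 of 32851 such windows (0.734%). Of the 15 Notch pathway genes 11 had a window, and the site stood in those of Hey2 and Lfng. In the Hey2 window, chr10:30842734-30843033 on the minus strand, capitals mark 2 matches, which begin 207 bases before the start, on the other strand, and 5 bases before it.
Hey2: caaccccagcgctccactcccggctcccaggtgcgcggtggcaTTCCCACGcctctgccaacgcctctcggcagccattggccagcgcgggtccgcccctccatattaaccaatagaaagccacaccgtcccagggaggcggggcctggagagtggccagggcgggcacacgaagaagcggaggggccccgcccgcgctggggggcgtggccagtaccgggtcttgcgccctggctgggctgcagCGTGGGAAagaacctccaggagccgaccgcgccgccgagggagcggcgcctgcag
A match is a description of letters and does not show binding.

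Genes of the dermal papilla and papillary dermis were also higher than in Dlk1+ Sca1+ cells, and 7 of 21 rose and none fell (median 0.41). The mean over the 21 was 8, 7.88 and 7.93 in Dlk1- Sca1+ cells, against 7.3, 7.4 and 7.36 in Dlk1+ Sca1+ cells. It was higher still in the cells without Sca1, at 8.61, 8.63 and 8.55 in papillary and 8.47, 8.25 and 8.54 in reticular cells. Without the 2 arrays named above 6 rose, and 7 or 8 rose without any single array. Prom1, a membrane glycoprotein used to sort dermal papilla cells in mice, read 6.80, 6.99 and 7.0 in Dlk1- Sca1+ cells, against 4.49, 5.53 and 4.62 in Dlk1+ Sca1+ cells. It was 4.14-fold higher (adjusted p = 8.45e-05). Alx4, a homeobox transcription factor, read 7.43, 7.63 and 7.38 in Dlk1- Sca1+ cells, against 5.70, 5.72 and 5.81 in Dlk1+ Sca1+ cells, and Trps1, a GATA-type repressor needed for hair follicles, 8.25, 8.13 and 8.57 against 6.84, 6.54 and 7.08 in the same order. Groups did not overlap in any of these genes. Sox18, which acts in blood vessels and in the dermal papilla, rose by 1.52, Entpd1, an ectonucleotidase, by 1.03, and Lepr, the leptin receptor, by 0.57. Corin, Lef1 and Sox2 averaged 4.38, 5.36 and 3.94 in Dlk1- Sca1+ cells and 3.97, 4.84 and 3.8 in Dlk1+ Sca1+ cells, and did not pass.

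Vascular genes that passed went in both directions, and among all 1258 genes that passed 706 fell. Of 17 vascular ligands and receptors, 3 rose and 5 fell, and 5 rose and 7 fell with the animal as a block. The ligands Angptl1, Angpt4, Angpt1, Vegfc and Hgf fell, by 3.12, 1.26, 0.66, 0.66 and 0.89 on the log2 scale. Tek, the receptor of angiopoietins, read 9.77, 9.68 and 9.86 in Dlk1- Sca1+ cells, against 8.11, 8.05 and 8.22 in Dlk1+ Sca1+ cells. It was 3.12-fold higher (adjusted p = 1.93e-06). Tek and Sox18 were the 2 of 19 endothelial markers that passed, while the defining endothelial genes Pecam1 and Cdh5 averaged lower, at differences of -0.47 and -0.46 that did not pass. The part of endothelial cells in the rise of Tek was not tested beyond these levels. Nrp2, a co-receptor for class 3 semaphorins, rose by 0.71 beside Sema3g, a ligand in this list that also rose. In 24 semaphorin and axon guidance genes, 4 rose and 5 fell, but 2 to 5 rose as single arrays were left out, with 2 without animal 3 of either Sca1+ population. Robo1, a receptor for Slit proteins, read 10.19, 9.81 and 9.99 in Dlk1- Sca1+ cells, against 8.91, 8.97 and 9.07 in Dlk1+ Sca1+ cells. Sema3c, Epha3 and Sema3f fell by 1.06, 1.04 and 0.65, and Sema6a rose by 0.58, so that Sema3g was the only class 3 semaphorin measured in either list that rose, among Sema3a, Sema3b, Sema3c, Sema3d, Sema3e, Sema3f and Sema3g. The call of Sema3f was lost with its 2 probe sets averaged.

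Antioxidant enzymes went in both directions. Of 22 antioxidant genes 5 fell and 2 rose. With all arrays of any 1 animal left out none rose, and 2 fell without animal 2. Beside Sod3, Gpx3, the secreted glutathione peroxidase, read 8.42, 7.29 and 7.45 in Dlk1- Sca1+ cells, against 11.01, 9.32 and 9.22 in Dlk1+ Sca1+ cells. Animal 1 was high in both populations, and the adjusted p of 0.00919 fell to 9.17e-04 with the animal as a block. Gstt1, a glutathione transferase, fell by 0.80, while Cat and Gpx1, catalase and the cytosolic glutathione peroxidase, rose by 0.39 and 0.34. Sod1 and Sod2, the superoxide dismutases of cytosol and mitochondria, averaged 11.70 and 11.04 in Dlk1- Sca1+ cells and 11.70 and 10.92 in Dlk1+ Sca1+ cells and did not pass.

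Of 19 detoxification genes 4 rose and 7 fell. When only genes above the median level were kept, 8 of the 19 remained, of which 3 rose and 2 fell. Ugt1a9 and Ugt1a6a, glucuronosyltransferases, rose by 2.07 and 1.87. They share exons of 1 locus, so their probe sets may read the same RNA. Cyp1b1, a cytochrome that oxidizes steroids and retinoids, read 11.24, 11.29 and 11.16 in Dlk1- Sca1+ cells, against 9.97, 10.05 and 9.75 in Dlk1+ Sca1+ cells, and was 2.47-fold higher (adjusted p = 4.32e-05). Its known regulator Ahr and the related Cyp1a1 differed by -0.24 and 0.17 and did not pass. Fmo2, a flavin monooxygenase, read 6.03, 6.36 and 5.86 in Dlk1- Sca1+ cells, against 7.93, 7.65 and 7.80 in Dlk1+ Sca1+ cells. Its difference of -1.71 was -0.91 with its probe sets averaged. Adh1, an alcohol dehydrogenase, and Akr1c14, a steroid reductase, fell by 1.61 and 1.60. In the retinoid pathway 3 of 12 fell and none rose, and 2 rose with the animal as a block. Aldh1a1, which makes retinoic acid, read 5.0, 4.82 and 4.95 in Dlk1- Sca1+ cells, against 7.34, 6.99 and 6.48 in Dlk1+ Sca1+ cells, and was 4.04-fold lower. The retinol carrier Rbp4 fell by 0.74. Aldh1a2, with the same reaction, fell by 1.04, and its adjusted p was 0.0604 without animal 1 of Dlk1+ Sca1+ cells and 0.0526 without animal 3 of Dlk1- Sca1+ cells.

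Complement genes were lower. Of 16 complement and coagulation genes 6 fell and 2 rose, and these counts were the same without any single Sca1+ array. C2, a component of the classical pathway, read 6.81, 6.72 and 7.17 in Dlk1- Sca1+ cells, against 9.30, 8.37 and 8.69 in Dlk1+ Sca1+ cells. C4b read 6.69, 6.61 and 6.61 in Dlk1- Sca1+ cells, against 8.60, 7.92 and 7.75 in Dlk1+ Sca1+ cells. The initiating proteases C1s1 and C1ra fell by 1.03 and 0.94, so that 4 of the genes that fell belong to 1 pathway. Serping1, the inhibitor of those proteases, fell too, by 1.12. Cd55, a membrane protein that speeds the decay of complement convertases, rose to 11.25, 11.20 and 11.41 in Dlk1- Sca1+ cells, against 9.89, 10.08 and 10.29 in Dlk1+ Sca1+ cells. Thbd, the membrane protein thrombomodulin, rose by 1.04. Of 29 chemokine and cytokine genes 1 rose and 4 fell, or 17.2% against 7.36% of all genes. From 2 to 5 fell as single arrays were left out, and without the 2 arrays named above 2 rose and 3 fell. Tnfrsf11b, the decoy receptor osteoprotegerin, read 7.08, 7.33 and 7.46 in Dlk1- Sca1+ cells, against 8.39, 8.34 and 8.45 in Dlk1+ Sca1+ cells, and the chemokine Ccl2 rose by 0.51. Il6 and Cxcl14 differed by -0.85 and -0.86, at adjusted p of 0.0839 and 0.0924 that became 0.0113 and 0.00661 with the animal as a block.

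Among 21 interferon-induced genes 6 fell and none rose (median -0.19), but the count ran from 3 to 9 as single arrays were left out and was 3 without the 2 arrays named above. The genes that fell include Ifi203, Ifi204 and Ifi205, which are close relatives on chromosome 1 whose probe sets may share RNA. Ifi203 read 6.25, 6.29 and 6.49 in Dlk1- Sca1+ cells, against 8.21, 8.13 and 8.21 in Dlk1+ Sca1+ cells. It was 3.58-fold lower with an adjusted p of 1.93e-06. Ifi205 read 5.57, 5.14 and 5.95 in Dlk1- Sca1+ cells, against 7.50, 7.02 and 7.35 in Dlk1+ Sca1+ cells, and Ifi204 fell by 1.38. Iigp1, an immunity-related GTPase, fell by 1.25, but its groups overlapped and the adjusted p of 0.036 was above 0.05 without any one of 4 arrays, up to 0.142 without animal 3 of Dlk1+ Sca1+ cells. The classical targets Mx1, Oas2, Irf7 and Usp18 differed by -0.08, -0.06, -0.17 and 0.10 and did not pass.

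The promoters of Ifi203 and Ifi205 are shown because both genes fell by more than 1.7 on the log2 scale and both windows hold the core of the element that interferon-activated factors bind. The letters searched were GAAA, any pair of bases and GAAA again, on both strands, and they stood in 1131 of 32851 RefSeq windows of the same size (3.44%). Of the 21 interferon-induced genes 14 had a window and 9 of these held the core, of which Ifi203 and Ifi205 passed. The windows are chr1:173942443-173942742 for Ifi203, 1 of 2 listed for this gene, and chr1:174031706-174032005 for Ifi205, both on the minus strand of GRCm38.p6. Capitals mark the matches, which begin 35 bases before the start of Ifi203, 134 bases before that of Ifi205 and, on the other strand, 23 bases after it.
Ifi203: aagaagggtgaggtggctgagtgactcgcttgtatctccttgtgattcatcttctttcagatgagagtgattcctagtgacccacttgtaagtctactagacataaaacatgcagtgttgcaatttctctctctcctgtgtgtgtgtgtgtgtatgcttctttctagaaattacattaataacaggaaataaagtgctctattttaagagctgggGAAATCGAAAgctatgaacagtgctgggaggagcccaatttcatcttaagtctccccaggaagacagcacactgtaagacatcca
Ifi205: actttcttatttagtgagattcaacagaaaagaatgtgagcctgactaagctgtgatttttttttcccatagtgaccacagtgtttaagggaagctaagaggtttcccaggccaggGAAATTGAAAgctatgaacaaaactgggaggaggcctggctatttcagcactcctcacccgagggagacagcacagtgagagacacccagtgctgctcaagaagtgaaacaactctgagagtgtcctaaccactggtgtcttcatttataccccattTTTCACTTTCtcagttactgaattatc
The match before each start runs into the same letters, and the longest unbroken run shared by both windows is the 14 bases gaaagctatgaaca. Windows of other interferon-induced genes that hold the core, such as Ifit1, Stat2 and Rsad2, belong to genes that did not pass.

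Elastic fibre genes were lower. Of 18, 9 fell and 1 rose, with a median difference of -0.52 that was the lowest of the lists in the plot of shares, and 8 or 9 fell without any single array. Fbln1, fibulin-1, read 10.94, 11.09 and 11.13 in Dlk1- Sca1+ cells, against 12.07, 12.08 and 12 in Dlk1+ Sca1+ cells. It was 2.00-fold lower (adjusted p = 2.88e-05). Eln, elastin itself, averaged 12.12 ± 0.19 in Dlk1- Sca1+ cells and 12.71 ± 0.05 in Dlk1+ Sca1+ cells (SD, n = 3 each). Fbn2, a fibrillin, fell by 0.76, Mfap2, a microfibril protein, by 0.58, and Lox and Loxl1, which crosslink elastin, by 0.66 and 0.55. Emilin2 was the gene of this list that rose, by 0.52.

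Proteoglycans and matricellular proteins fell in 11 of 27 cases and rose in none, or in 2 with the animal as a block. Thbs4 read 6.07, 6.28 and 5.66 in Dlk1- Sca1+ cells, against 8.77, 8.5 and 8.46 in Dlk1+ Sca1+ cells. Smoc2, a calcium-binding matrix protein, read 8.69, 8.66 and 8.44 in Dlk1- Sca1+ cells, against 10.23, 10.07 and 10.15 in Dlk1+ Sca1+ cells, and was 2.93-fold lower. The small leucine-rich proteoglycans Ogn, Fmod, Podn and Lum fell by 1.24, 0.96, 0.69 and 0.32, while Dcn, of the same family, averaged 12.69 in Dlk1- Sca1+ cells and 12.78 in Dlk1+ Sca1+ cells and did not pass. Without the 2 arrays named above 9 of the 27 fell.

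Collagens moved gene by gene. The main fibrillar chains Col1a1 and Col3a1 averaged 13.12 ± 0.05 and 12.93 ± 0.05 in Dlk1- Sca1+ cells and 13.14 ± 0.02 and 12.92 ± 0.02 in Dlk1+ Sca1+ cells (SD, n = 3 each), close to the upper end of the deposited scale at 13.27, where RMA values of bright probe sets can be compressed. Of 20 collagens 4 rose and 3 fell, and 3 rose and 1 fell without the 2 arrays named above. Col11a1, a chain of a minor fibrillar collagen, read 8.30, 9.11 and 8.99 in Dlk1- Sca1+ cells, against 6.89, 6.98 and 6.63 in Dlk1+ Sca1+ cells. Its difference of 1.97 was 1.15 with its probe sets averaged. Col7a1, which forms anchoring fibrils under the epidermis, rose by 1.07 and Col26a1 by 0.95. Col14a1, which sits on the surface of collagen fibrils, fell to 10.04, 10.37 and 10.32 in Dlk1- Sca1+ cells, against 11.58, 11.67 and 11.59 in Dlk1+ Sca1+ cells. In the basement membrane list, Col18a1 rose by 0.88 and Hspg2, perlecan, fell by 0.46, a call lost without the 2 arrays named above, and the other 16 of 18 did not pass.

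Matrix proteases and their inhibitors split as well, with 4 of 20 higher and 5 lower. Adamts18, a metalloprotease, read 10.46, 10.42 and 10.15 in Dlk1- Sca1+ cells, against 8.19, 8.72 and 8.28 in Dlk1+ Sca1+ cells, and was 3.85-fold higher (adjusted p = 5.24e-05). Timp3, a metalloprotease inhibitor bound to the matrix, rose by 0.86 and its relative Timp1 fell by 0.51. Mmp16 and Mmp3 fell by 1.20 and 1.09. Adamtsl3, a protein related to the ADAMTS family without its protease domain, fell by 1.85 and read highest, at 7.52, in the Dlk1+ Sca1+ array of animal 1.

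**Figure D3:**
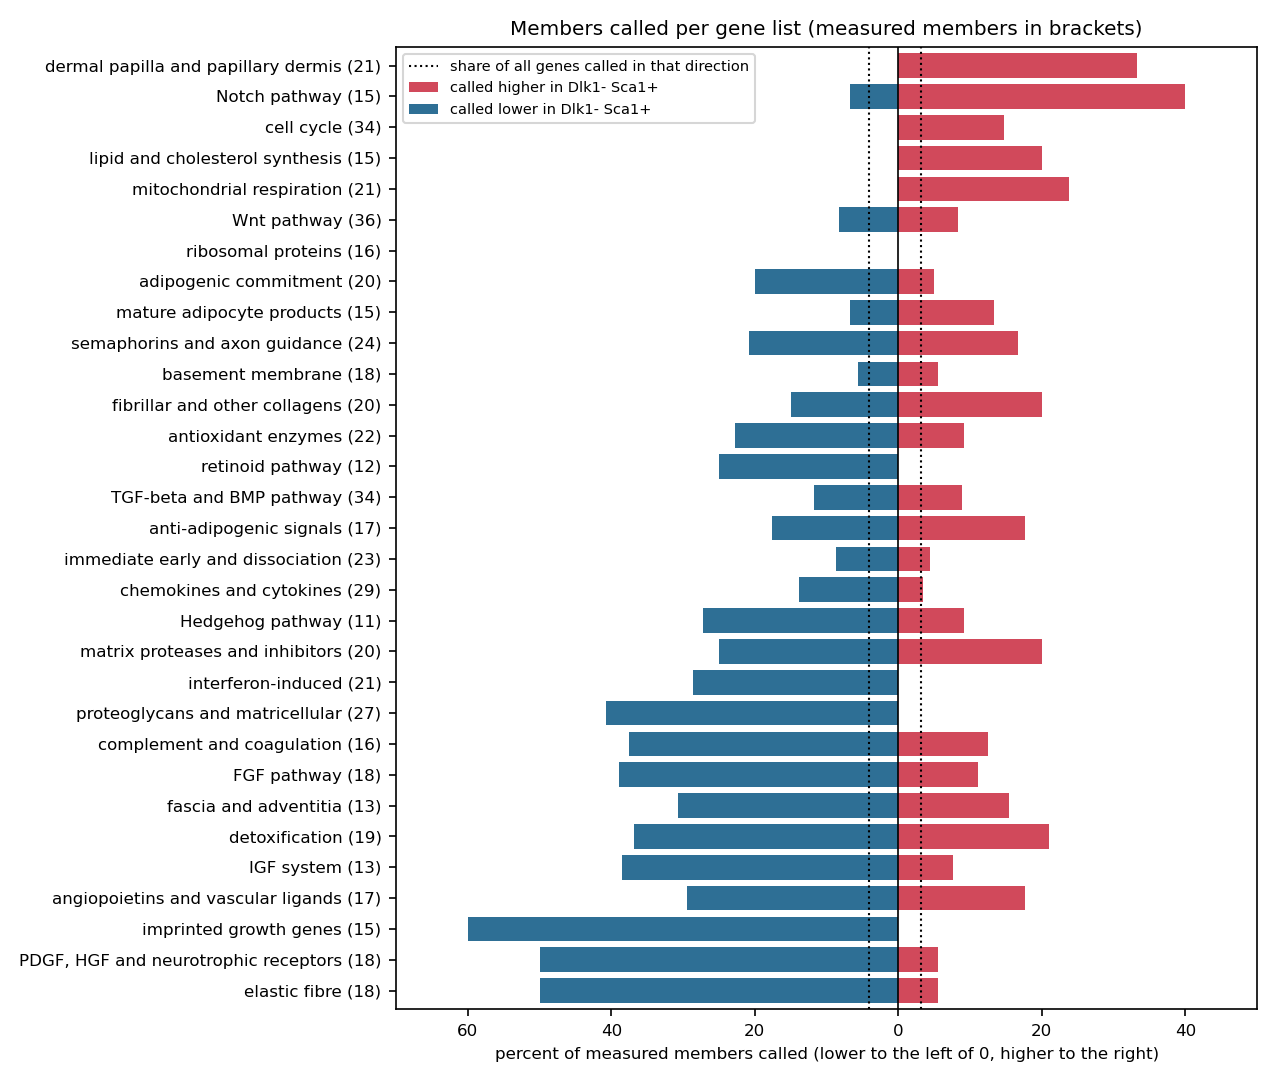
Percent of the measured members of each gene list (horizontal axis) that rose, to the right of 0, or fell, to the left, in Dlk1- Sca1+ cells, with lists ordered by their median difference and the number of measured members in brackets. Dotted lines mark the 3.23% of all genes that rose and the 4.13% that fell, elastic fibre genes lie at the bottom with 9 of 18 lower, and dermal papilla genes lie at the top with 7 of 21 higher.

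A minority of cell cycle and mitochondrial genes rose, by small amounts. Of 34 cell cycle genes 5 rose and none fell (median 0.25), but the count ran from 2 to 5 as single arrays were left out, was 2 without the Dlk1- Sca1+ array of animal 1, and was 0 without the 2 arrays named above. Top2a, a topoisomerase of dividing cells, read 7.11, 6.96 and 7.16 in Dlk1- Sca1+ cells, against 6.45, 6.6 and 6.62 in Dlk1+ Sca1+ cells (adjusted p = 0.00704). Of the 3 probe sets of Top2a 2 did not pass, and its call was lost with them averaged. Cenpf, at 0.64, and Rrm2, at 0.48, lost their call without any one of 4 and 5 arrays, at up to 0.109 without animal 1 of Dlk1- Sca1+ cells for Cenpf and 0.176 without animal 1 of Dlk1+ Sca1+ cells for Rrm2. Mki67 averaged 8.61 in Dlk1- Sca1+ cells and 8.20 in Dlk1+ Sca1+ cells and did not pass (adjusted p = 0.111). Of 21 genes of mitochondrial respiration 5 rose and none fell (median 0.24), 2 to 5 as single arrays were left out, 10 with the animal as a block, and 1 without the 2 arrays named above. Uqcrc1, a subunit of complex III, rose by 0.35 and Atp5b, a subunit of ATP synthase, by 0.30. None of 16 ribosomal protein genes passed.

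To place the difference in Sca1+ cells beside that in Sca1- cells, CD26+ papillary cells were set against Dlk1+ reticular cells of the same animals. These 2 gates also differ in CD26, which cannot be told apart from Dlk1 here, and no array enters both differences. In that comparison 4702 genes (27.5%) passed. Levels in papillary cells were higher for 2375 (13.9%) and lower for 2327 (13.6%). Of the 552 genes that rose in Dlk1- Sca1+ cells, 244 (44.2%) were also higher in papillary than in reticular cells, 102 (18.5%) were lower and 206 did not pass there. Of the 706 that fell, 459 (65%) were also lower, 70 (9.92%) were higher and 177 did not pass. Those 244 and 459 genes are 10.3% and 19.7% of the genes that were higher and lower in papillary cells. Across all 17097 genes, which are not independent replicates, the 2 differences correlated at r = 0.366.

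Whether the 2 differences were unequal was tested gene by gene as a difference of differences, the one in Sca1+ cells minus the one in Sca1- cells. The test was passed by 2543 genes (14.9%), 1334 (7.8%) of them positive and 1209 (7.07%) negative. It was passed by 287 of the 552 genes that rose in Dlk1- Sca1+ cells and by 319 of the 706 that fell. Sod3 was similar in both: it averaged 4.98 in papillary and 8.13 in reticular cells, a difference of -3.15, and the inequality of -0.19 (SE 0.22) did not pass (adjusted p = 0.717). Loxl3, Trps1, Igf2, Spry2 and Fmo2 likewise had inequalities between -0.23 and 0.08 that did not pass. Angptl1 was lower in both Dlk1- gates but more so in papillary cells, which averaged 5.41 against 10.99 in reticular cells, and its inequality of 2.45 passed (adjusted p = 1.36e-06).

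**Figure D4:**
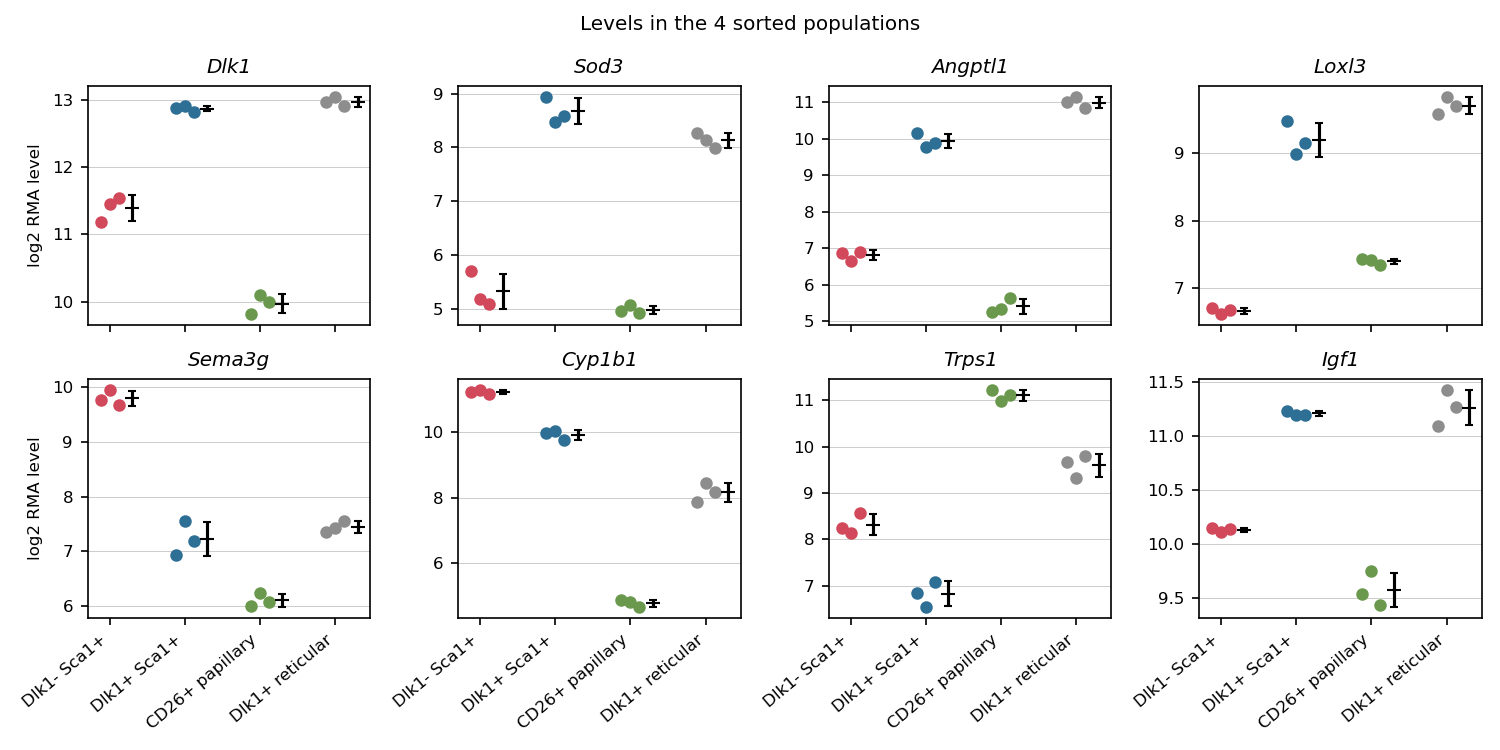
Log2 RMA level (vertical axis, scaled to each gene) of 8 genes in the 4 sorted populations, with 1 point per animal and the mean with SD bars beside the points (n = 3). Dlk1, Sod3, Angptl1, Loxl3 and Igf1 are lower in both Dlk1- populations, Trps1 is higher in both, and Sema3g and Cyp1b1 are higher in Dlk1- Sca1+ cells but lower in papillary cells than in the matching Dlk1+ population.

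Several of the largest rises ran opposite to the Sca1- pair. Sema3g averaged 6.11 in papillary and 7.45 in reticular cells, a difference of -1.34, against 2.57 in the Sca1+ pair. Cyp1b1 averaged 4.79 in papillary and 8.17 in reticular cells, so that Dlk1- Sca1+ cells had the highest level of the 4 populations at 11.23 and papillary cells, the other Dlk1- gate, the lowest. The Notch targets Heyl, Hes1 and Hey1 were lower in papillary than in reticular cells by 4.28, 1.68 and 1.07, and each was higher in Dlk1- Sca1+ cells, with inequalities of 5.06, 2.31 and 2.26 that passed. Col11a1, Adamts18, Prom1 and Alx4 showed the same change of sign. Among genes that fell, Sema3f, Fbn2, Hspg2 and Cdon were lower in Dlk1- Sca1+ cells but higher in papillary than in reticular cells, by 0.80, 0.43, 0.56 and 0.56, and the inequality passed in each.

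**Figure D5:**
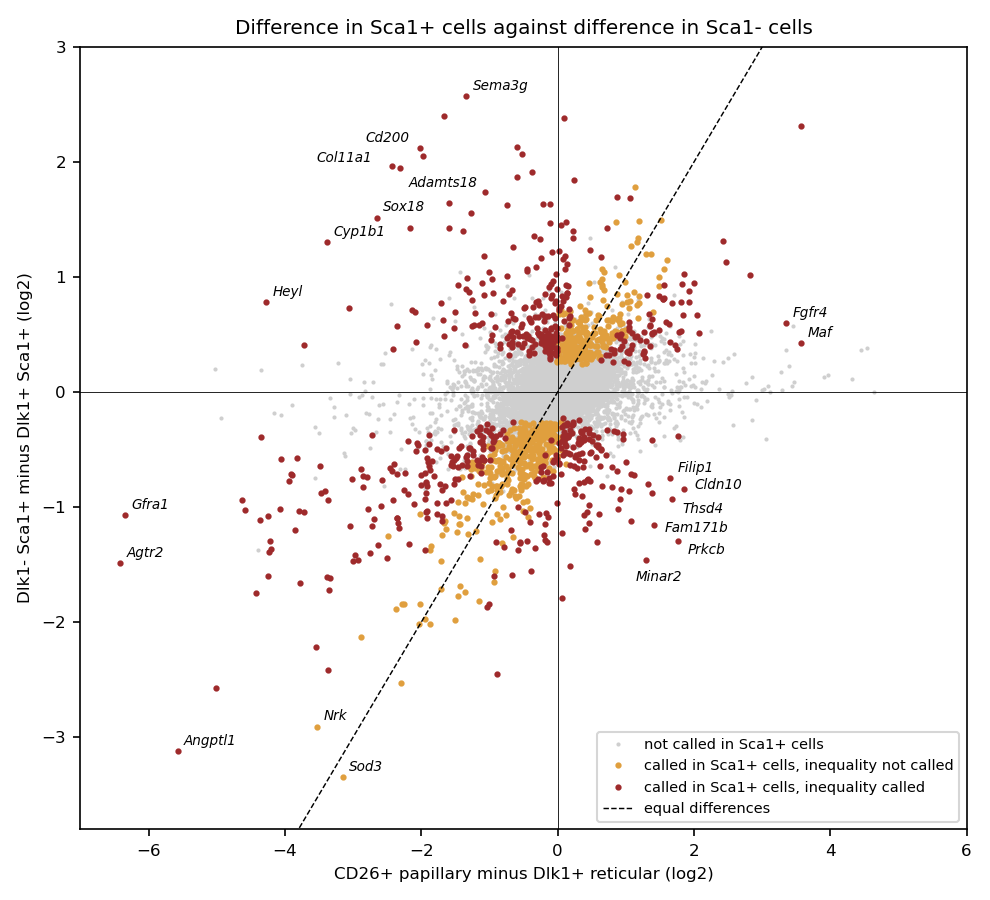
Difference between Dlk1- Sca1+ and Dlk1+ Sca1+ cells (vertical axis, log2) against the difference between CD26+ papillary and Dlk1+ reticular cells (horizontal axis, log2) for 17097 genes, with 1 point per gene and a dashed line of equal differences. Sod3 and Nrk lie near the line at the lower left, while Sema3g, Cd200 and Cyp1b1 lie at the upper left, higher in Dlk1- Sca1+ cells and lower in papillary cells.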

How the data were processed

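Affymetrix arrays measured RNA of 12 sorted fibroblast samples, 1 array each. The authors deposited log2 values made by RMA, per the submitters' processing notes, which name the affy package; RMA corrects background, equalizes the distributions of the arrays and summarizes probes, so differences in total RNA and in very bright genes are compressed. Versions and a genome build are not given in the sources used here. No array was removed.

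Of 45141 probe sets, 28898 had 1 gene symbol, 551 had several and 15588 had none. Each gene was read from its probe set of highest average level, which left 17097 genes with no filter on level. Of the genes followed one by one that passed, 70 had more than 1 probe set. In 33 of these a probe set did not pass, and in 0 a probe set passed the opposite way. One limma (3.58.1, R 4.3.3) fit over the 4 populations gave each difference, with 8 residual and 4.475 prior degrees of freedom and Benjamini-Hochberg adjustment over all genes. The procedure was checked on simulated data. Those data had independent noise, with no animal effect and no cells of other types, so the check does not bear on either. Replicate numbers mark the same littermates; deviations of same-numbered arrays correlated at 0.139, 0.17 and 0.383, and the animal as a block was the paired alternative. Other alternatives were the choice of probe set, a filter on level, centring, renewed quantile normalization, an intensity trend, the Sca1+ arrays alone, and arrays left out.

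The 42 gene lists were chosen with earlier results of these data known, so none is independent support. Genes followed one by one were the 15 largest changes in each direction among those that passed and did not overlap, up to 4 per list, the 8 largest inequalities in each direction, the sorting genes and the 4 given markers. Other members of the lists are named as examples, chosen after their values were seen. Promoter windows are from RefSeq. Each population has 3 arrays, which limits precision.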

Additional observations from a re-analysis of the deposited data

Results flagged for a closer look

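The difference between Dlk1- and Dlk1+ cells was not the same in Sca1+ and Sca1- cells for 2543 genes, by a limma test of the difference of the 2 differences on the log2 scale. Values below are the difference in Sca1+ cells minus the one in Sca1- cells, and the Sca1- gates also differ in CD26. Each gene listed here also passed between Dlk1- Sca1+ and Dlk1+ Sca1+ cells. Each inequality passed under every alternative run, but sizes depend on the probe set, and with probe sets averaged those of Gfra1, Heyl, Cyp1b1 and Col11a1 were 3.3, 3.43, 3.09 and 2.37.

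In 8 genes the inequality was positive and largest. Gfra1, the co-receptor of GDNF, had 5.27, and fell by 1.07 in Dlk1- Sca1+ cells, against a difference of -6.34 in papillary cells. Heyl had 5.06, Agtr2 had 4.93 and Cyp1b1 had 4.69. Of these, Agtr2 was lower in both Dlk1- gates, and Heyl and Cyp1b1 were higher in Dlk1- Sca1+ cells and lower in papillary cells. Col11a1 had 4.40, Adamts18 4.26, Sox18 4.17 and Cd200 4.14, all with the same opposite signs as Heyl.

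In 8 others it was negative and largest in size. Maf, a transcription factor, had -3.15 and was higher in both Dlk1- gates, at differences of 0.43 in Sca1+ cells and 3.57 in Sca1- cells. Fgfr4 had -2.76 with the same 2 signs. Prkcb, a protein kinase C, had -3.06, Minar2 -2.75, Cldn10, a claudin of tight junctions, -2.70, Thsd4, a matrix protein, -2.60, Fam171b -2.57 and Filip1 -2.39. These 6 were lower in Dlk1- Sca1+ cells and higher in papillary cells. Minar2 and Fgfr4 are among the genes whose difference in Sca1+ cells missed the threshold when single arrays were left out.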

How the results depend on the processing

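Of 1258 genes that passed between Dlk1- Sca1+ and Dlk1+ Sca1+ cells, 1257 also passed with the animal as a block, which is the replicate block the littermate pairing calls for and which gave 1897 in all. The count was 197 with a difference of at least 1 required and 824 without the Dlk1- Sca1+ array of animal 1 and the Dlk1+ Sca1+ array of animal 2. Leaving out 1 animal or 1 array gave 532 to 1180. The test of unequal differences gave 2543 genes, 3324 with the animal as a block, 837 with a difference of at least 1, and 1407 to 2369 with 1 animal or 1 array left out. The Sca1+ arrays alone gave 941, and the choice of probe set, the filter on level, centring, renewed quantile normalization and the intensity trend gave 1220 to 1443. Over the genes followed one by one, 231 of the alternative values of the difference in Sca1+ cells were no longer past the threshold, 19 came past it, and 0 changed sign after a call. Counts of the interferon, cell cycle, mitochondrial, chemokine, semaphorin, FGF, anti-adipogenic, Hedgehog and fascia lists depended on single arrays, as given with each. The cause was not tested. Other lists moved when a whole animal was left out, among them the insulin-like growth factor, antioxidant and Notch lists. Dim probe sets have only weak signal over background, and very bright ones are compressed.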

Other observations

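Hedgehog receptor genes went in both directions. Of 11 pathway genes, the co-receptor genes Boc, Cdon and Gas1 fell by 0.72, 0.57 and 0.45 in Dlk1- Sca1+ cells, and Ptch1, the receptor gene that the pathway itself induces, rose by 0.52. The rise of Ptch1 was lost without animal 3 of Dlk1- Sca1+ cells or animal 1 of Dlk1+ Sca1+ cells. Without the 2 arrays named above 3 of the 11 fell and none rose. With all arrays of animal 1 left out 1 fell and none rose, and with those of animal 2 left out 2 fell and none rose. The call of Gas1 was lost without any 1 animal, and that of Cdon without animal 1. Gli1, another induced gene, differed by 0.12 and did not pass. Of 13 fascia and adventitia markers 4 fell and 2 rose, but 2 or 3 fell with any single Sca1+ array left out, with 2 without animal 1 of Dlk1+ Sca1+ cells. Procr, the protein C receptor, fell by 1.14 and Plac8 by 1.18, which had an adjusted p of 0.0548 without animal 1 of Dlk1+ Sca1+ cells, while Cd55 and Efhd1 rose by 1.20 and 0.77.

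Of 14 skeletal muscle genes 3 fell, namely Acta1, Tnnc2 and Mylpf, by 1.17, 1.10 and 0.62, and Myod1, the factor that defines muscle precursors, differed by -0.15 and did not pass. The mean over the 14 was 5.53, 5.66 and 5.58 in Dlk1- Sca1+ cells, against 5.87, 5.85 and 5.83 in Dlk1+ Sca1+ cells. Of 23 immediate early and dissociation genes 1 rose and 2 fell, or 13% against 7.36% of all genes. With any single array left out 1 fell, and Fos, Jun and Egr1 differed by -0.12, -0.07 and -0.11.

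Among the 15588 probe sets without a gene symbol here, 337 were higher and 425 lower in Dlk1- Sca1+ cells, or 4.89%. These calls are from a separate fit over 45037 probe sets with its own adjustment. No share over all probe sets was taken, so 4.89% cannot be set beside the share of genes that passed.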
